A study of Homo sapiens with 3 samples.

Results

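The comparison described here set A375 cells kept in the secretome of old adipocytes (OA-A375) against A375 cells kept in serum-free DMEM (control), with 1 library on each side. It took in the genes whose normalised count averaged 20 or more over the 3 libraries of the series, 14413 of 58037. A375 is an established human melanoma line that carries an activated BRAF kinase. A secretome is medium conditioned by cells, here serum-free DMEM left on adipocytes that had been differentiated in culture from human subcutaneous preadipocytes. The third library, A375 in the secretome of young adipocytes (YA-A375), is given only as a value beside the other pair. The exposure lasted 24 h according to the series description, and both cultures were without serum. Old-adipocyte medium was thus compared with unconditioned medium, so that an effect of donor age and an effect of any adipocyte medium cannot be told apart in this comparison.

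Adipocytes store lipids and release fatty acids, phospholipids, matrix proteins and cytokines, and adipose tissue of older people is known for inflammatory secretion. Several such factors, among them tumour necrosis factor and interleukin-1, act on receptors that free NF-kB dimers from their inhibitors, after which chemokine, cytokine and NF-kB inhibitor genes are transcribed. Lipids taken up by a cell are sensed in another way. Sterols keep the transcription factor SREBP-2 in the endoplasmic reticulum, so that genes of cholesterol synthesis are transcribed less when sterol is plentiful. Melanoma cells derive from the neural crest, and they are known to move between a pigmented state and undifferentiated or invasive states.

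A normalised count is a deposited read count divided by the library's size factor, and values below are normalised counts in control, YA-A375 and OA-A375 in that order unless reads are named. A fold is the normalised count of OA-A375 divided by that of control, so values under 1 are lower in OA-A375, and the range in brackets is its 95% counting interval. A gene was called higher or lower when that whole interval lay beyond 1.2-fold, and rose, fell, higher and lower are used for called genes only. The intervals hold counting error alone. There was no replicate, no p-value was possible, and each difference is one between 2 libraries. Counts are also relative to the other genes of a library, so a change in total RNA per cell would not be seen. The filter used all 3 libraries, so a weakly counted gene could pass only through the library where it was high. For such genes passing the filter favoured a call.

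The OA-A375 library held 18089008 counts and the control library 21448195. By this rule 1303 genes (9.04%) were higher and 1308 (9.08%) were lower in OA-A375, and the median log2 fold change over all genes tested was 0.01, with quartiles of -0.21 and 0.21. A change of 8-fold or more was found upward in 25 genes and downward in 45. Medians by exonic length were close to this, 0.06 in the shortest 20% of genes and -0.02 in the longest 20%. The share called lower rose with length, from 5.42% in the shortest 20% to 11.6% in the longest, while the share called higher was 9.07% and 10.5%. These counts are the background against which each list of genes below can be read. The 41 functional lists together held 939 tested genes, of which 266 were higher and 148 lower, larger shares than over all genes tested. They were chosen with earlier results of these data known, so a share above the background is not particular to any one list.

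**Figure D1:**
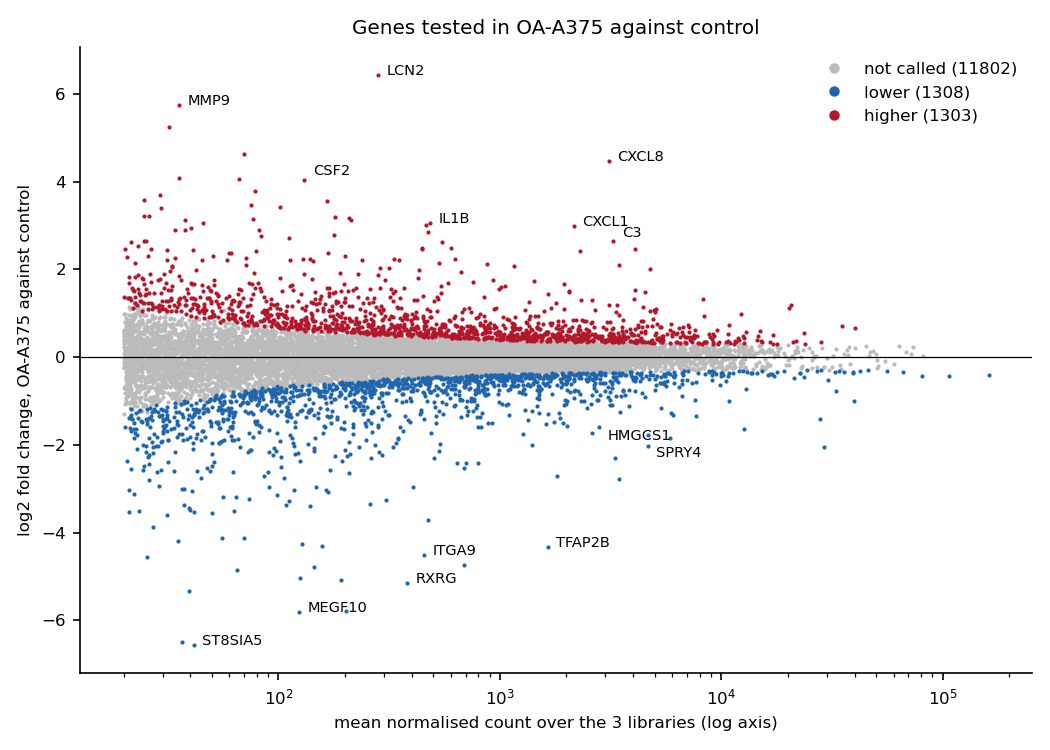
Each point is 1 of 14413 genes, with its mean normalised count over the 3 libraries on the x axis (log scale) and its log2 fold change in OA-A375 against control on the y axis. The 1303 genes called higher and the 1308 called lower spread about evenly around 0, and inflammatory genes such as LCN2, MMP9 and CXCL8 stand at the top while RXRG, ITGA9 and TFAP2B stand at the bottom.

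The lineage of the cells was checked with marker genes. The neural crest and melanoma markers NES (5981 to 8219), MCAM (6312 to 8438), CSPG4 (18319 to 18193), S100B (794 to 617) and MITF (1151 to 989) were well counted, each given as control to OA-A375. Pigment genes were near absent, with 2, 10 and 10 reads of PMEL, 22, 18 and 16 of MLANA and 2, 0 and 0 of TYR, and SOX10, a neural crest factor that many melanomas express, had 0 reads in every library. The cause of the 0 was not tested. Adipocyte RNA was not evident from the defining markers, as ADIPOQ had 1, 0 and 0 reads, LEP 0 and PLIN1 2, 5 and 2. Of 16 adipocyte markers 6 passed the filter, 1 of them higher and 1 lower, with log2 fold changes from -3.27 to 2.64. The summed level of the list was 772 in control, 1377 in YA-A375 and 594 in OA-A375. For leukocytes PTPRC had 0, 1 and 0 reads and 1 of 16 markers passed, with sums of 169, 169 and 126. For fibroblasts COL3A1 had 0, 1 and 1 and COL1A2 1, 1 and 2 reads. However, 7 of 15 markers passed, PDGFRA among them, with 1 higher and 1 lower. The fibroblast sum went from 982 in control to 1339 and 1713, and that of COL6A3 alone from 137 to 285 and 995. Of 10 endothelial markers 5 passed, with sums of 1035, 1032 and 1082, and of 10 keratinocyte markers 5, with sums of 10511, 9919 and 8565.

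Among the genes furthest above control were chemokines, cytokines and a matrix protease. Ranked by the lower bound of the interval, the first 12 were LCN2, CXCL8, MMP9, SULT1B1, IL32, CSF2, SPRR2D, GAP43, HAS2, TNFRSF9, CXCL1 and CTSS. With OA-A375 at the control level, LCN2, MMP9, SULT1B1, IL32, SPRR2D, GAP43 and TNFRSF9 would not have passed the filter. LCN2, which codes for the iron-siderophore binding protein lipocalin 2, stood at 8.48 in control, 27.4 in YA-A375 and 809 in OA-A375, 95.4-fold (49.99 to 209.6). MMP9, the gelatinase that cleaves basement membrane collagen, had 1 read in control, 3 in YA-A375 and 92 in OA-A375, a ratio of 109.6 (19.2 to 4375) whose upper end is barely bounded because of the single control read. In both genes the YA-A375 library lay far nearer to control than to OA-A375, which stood above both. HAS2, a hyaluronan synthase, went from 35.8 to 429, 11.97-fold (8.57 to 17.2). The lysosomal protease gene CTSS went from 22.6 to 250.3, 11.1-fold (7.25 to 17.6), and GAP43, a growth cone protein, from 14.1 to 207, 14.6-fold (8.63 to 26.6). SPRR2D, a protein of the epidermal cornified envelope, went from 8.48 to 157, and the sulfotransferase gene SULT1B1 from 6.596 to 187.

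Chemokines had the highest median of the 41 lists of genes compared when weakly counted genes were left out. Of 23 genes listed, 8 were tested, 6 were higher and 0 were lower, with a median log2 fold change of 2.497 beside 0.01 over all genes. With no expression filter 18 members gave a median of 1.44, below the 1.61 of metallothioneins. The neutrophil attractants led. CXCL8 stood at 378 in control, 468 in YA-A375 and 8445 in OA-A375, 22.3-fold (20.2 to 24.8). CXCL1 stood at 651 in control, 688 in YA-A375 and 5146 in OA-A375, 7.902-fold (7.29 to 8.57). CXCL2 and CXCL3 were far less abundant, at 40.5 and 53.7 in control, 120.0 and 100.2 in YA-A375 and 378 and 378 in OA-A375. OA-A375 was the highest of the libraries for these genes, and YA-A375 was between control and it. CCL2, the main monocyte attractant, went from 61.2 to 285, 4.65-fold (3.53 to 6.21), and the membrane-bound CX3CL1 from 14.1 to 35.9. CCL28 and CXCL16 were not called, with folds of 0.906 (0.761 to 1.08) and 0.712 (0.569 to 0.887). Chemokines that depend on interferon had next to no reads, with 0, 4 and 1 for CXCL10, 0, 0 and 4 for CXCL11 and 1, 0 and 0 for CXCL9 in control, YA-A375 and OA-A375. Divided by exonic length, CXCL8 reached 3714 normalised counts per kb in OA-A375 and CXCL1 3970.3, beside 144 for CCL2 and 35.3 for IL6, and the whole list summed to 1717 normalised counts in control, 1972 in YA-A375 and 15123 in OA-A375.

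The 4 CXC genes lie within one cluster on chromosome 4 (GRCh38, GENCODE 29): CXCL8 at 73740506 to 73743716, CXCL1 at 73869393 to 73871242, CXCL3 at 74036589 to 74038807 and CXCL2 at 74097035 to 74099293. The neighbours in the same stretch did not take part, as CXCL6, PF4V1, PF4 and PPBP had 0 reads in every library and CXCL5 had 0, 4 and 1. The stretch of 80 bases from 100 to 21 bases before the RefSeq start of each gene is shown because all 4 members hold the letters GGNNTTTCC, a form of the NF-kB binding sequence, searched on both strands. Matches are in capitals, and all sequences are GRCh38.p14, written 5′ to 3′ on the strand of the gene.
CXCL8 (chr4:73740469-73740548, plus strand): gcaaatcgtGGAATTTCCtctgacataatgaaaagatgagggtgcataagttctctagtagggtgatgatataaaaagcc
CXCL1 (chr4:73869293-73869372, plus strand): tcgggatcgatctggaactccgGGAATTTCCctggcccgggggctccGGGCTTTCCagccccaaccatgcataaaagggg
CXCL2 (chr4:74099216-74099295, minus strand): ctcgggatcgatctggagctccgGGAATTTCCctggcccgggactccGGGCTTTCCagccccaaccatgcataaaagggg
CXCL3 (chr4:74038710-74038789, minus strand): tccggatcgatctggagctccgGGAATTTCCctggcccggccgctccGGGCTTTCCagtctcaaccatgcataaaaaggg
CXCL1, CXCL2 and CXCL3 are close copies that each hold 2 matches at nearly the same places, so reads may be shared among them and their counts are less certain than that of CXCL8. Of the 5 tested chemokines with a promoter in the RefSeq table, 4 held a match. Among all 10038 tested genes with a promoter of 300 bases in the table the share was 6.64%, among those called higher 7.98% and among those called lower 6.94%. A match describes letters and does not show binding.

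Interleukins and colony-stimulating factors rose as well. Of 15 tested genes 11 were higher and 0 lower, and the median log2 fold change was 0.99. IL32, IL6 and TNFSF13B would not have passed the filter with OA-A375 at the control level. With no expression filter 24 members gave a median of 0.97. CSF2, which codes for GM-CSF, stood at 19.8 in control, 31.2 in YA-A375 and 342 in OA-A375, 17.3-fold (11.1 to 28.4). IL1B stood at 145 in control, 103 in YA-A375 and 1207 in OA-A375, 8.32-fold (7.02 to 9.91), and IL1A at 173 in control, 190.0 in YA-A375 and 971 in OA-A375, 5.6001-fold (4.77 to 6.602). Both interleukin-1 genes were highest in OA-A375, and for IL1B the YA-A375 value lay under control. In melanoma cells the study measured IL-6 as secreted protein after ceramide exposure, whereas reads of its RNA are given here. IL6 had few reads at 5, 10 and 65, 15.5-fold (6.31 to 49.3). The interval of IL6 is wide for that reason. IL32 had 1, 24 and 65 reads, a ratio of 77.4 (13.4 to 3105). Relatives of IL-6 were better counted. LIF went from 1209 to 3443, 2.85-fold (2.67 to 3.04), and IL11 from 321 to 639, 1.99-fold (1.73 to 2.28), while the related cytokine gene CLCF1 went from 161 to 286. CSF1, the macrophage growth factor, rose 1.89-fold (1.66 to 2.15), IL18 1.797-fold (1.41 to 2.29) and TNFSF13B, which codes for BAFF, 2.98-fold (1.56 to 5.99). TNF itself had 0, 0 and 4 reads, and IL7, IL12A, IL24 and TNFSF9 were not called.

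**Figure D2:**
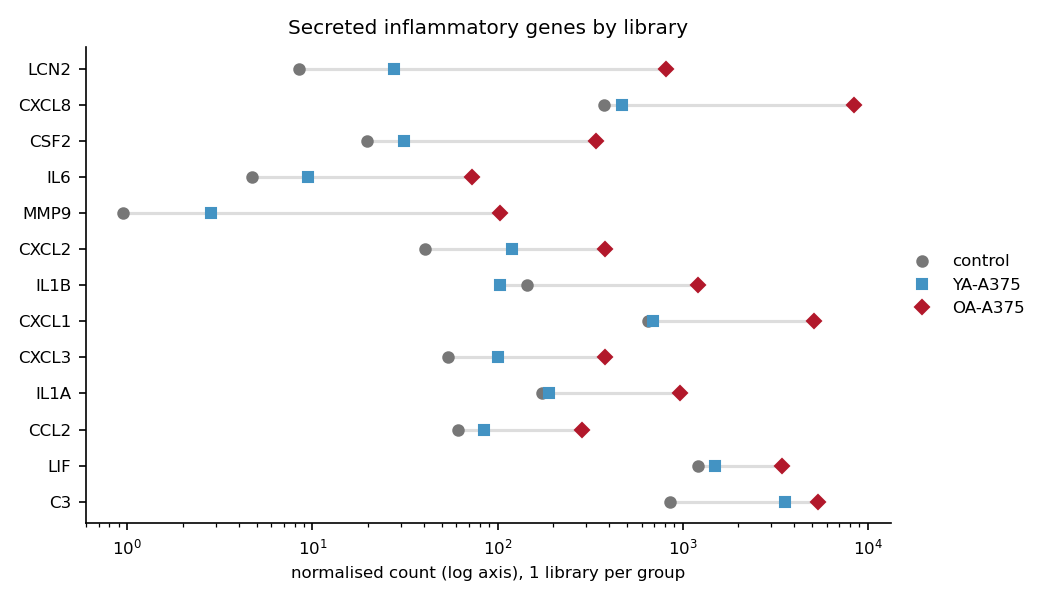
Normalised counts on a log axis of 13 secreted inflammatory genes, with 1 point for each library: control in grey, YA-A375 in blue and OA-A375 in red. The OA-A375 point is the furthest right in each gene, and CXCL8 reaches the highest count.

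The promoters of IL6 and IL32 are shown for the same reason, with the NF-kB inhibitor gene TNFAIP3 beside them. Capitals mark the letters of the same motif on either strand, in the window from 100 to 21 bases before the start.
IL6 (chr7:22727100-22727179, plus strand): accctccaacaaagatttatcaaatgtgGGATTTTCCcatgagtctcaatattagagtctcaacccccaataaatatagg
IL32 (chr16:3065303-3065382, plus strand): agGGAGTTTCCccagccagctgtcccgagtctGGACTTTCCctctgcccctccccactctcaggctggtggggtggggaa
TNFAIP3 (chr6:137867159-137867238, plus strand): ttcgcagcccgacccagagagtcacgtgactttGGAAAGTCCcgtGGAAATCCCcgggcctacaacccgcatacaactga
Of 10 tested members of the interleukin list with a promoter in the table, 2 held a match, and of 17 members of the NF-kB list 6 did (BCL3, NFKB1, NFKBIA, NFKBIZ, REL and TNFAIP3). Matches were not limited to lists with a high median, since 4 of 16 cholesterol synthesis promoters held one (GGPS1, HMGCS1, MVK and TM7SF2).

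Receptors and adaptors for these ligands moved in both directions. Of 36 tested, 8 were higher and 5 lower, and the median log2 fold change of 0.01 turned negative under TMM scaling. TNFRSF9, the costimulatory receptor 4-1BB, went from 4.71 to 95.4, 20.3-fold (8.35 to 63.97). IL18R1 rose 3.28-fold (2.34 to 4.66), the interleukin-1 pathway kinase IRAK2 3.01-fold (2.46 to 3.69) and IL4R 2.03-fold (1.77 to 2.33), and TNFRSF1A, the main receptor for tumour necrosis factor, stood at 3771 in control, 5256 in YA-A375 and 6397 in OA-A375, 1.696-fold (1.63 to 1.77). Other members fell. LIFR, the receptor chain for LIF, stood at 827 in control, 577 in YA-A375 and 187 in OA-A375, 0.227-fold (0.191 to 0.268), and TRAF1 at 787 in control, 453 in YA-A375 and 309.8 in OA-A375, 0.394-fold (0.342 to 0.452). IL1RAP and MYD88, which carry interleukin-1 signals, had folds of 0.661 (0.589 to 0.743) and 0.682 (0.615 to 0.756). LIF and its receptor chain thus went in opposite directions. IL6ST, the signalling chain common to the IL-6 family, was not called at 0.953 (0.916 to 0.991), and neither was IL6R at 0.758 (0.654 to 0.878).

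Within the NF-kB pathway the members that rose were mostly inhibitors and the noncanonical subunits. Of 20 tested genes 10 were higher and 0 lower, with a median of 0.43. NFKBIA, the inhibitor IκBα and itself an NF-kB target, stood at 354 in control, 726 in YA-A375 and 1548 in OA-A375, 4.37-fold (3.895 to 4.91). TNFAIP3, which codes for the inhibitory enzyme A20, stood at 171 in control, 353 in YA-A375 and 487 in OA-A375, 2.84-fold (2.38 to 3.396), and the RNase gene ZC3H12A at 128 in control, 266 in YA-A375 and 381 in OA-A375, 2.97-fold (2.43 to 3.65). For these inhibitors YA-A375 was also above control, at a lower level than OA-A375. RELB rose 2.49-fold (2.16 to 2.87), NFKB2 2.12-fold (2.01 to 2.24) and BCL3 1.92-fold (1.62 to 2.27). RELA was not called at 1.12 (1.05 to 1.19), nor NFKB1 at 1.21 (1.14 to 1.28), nor the kinase genes IKBKB (1.01 (0.912 to 1.12)) and CHUK (1.19 (1.098 to 1.299)), whereas IKBKE rose 1.602-fold (1.37 to 1.87).

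Other genes known as NF-kB targets followed, with 15 of 23 higher, 1 lower and a median of 0.69. The survival genes BIRC3 and BCL2A1 led, though BCL2A1 would not have passed the filter with OA-A375 at the control level. BIRC3 stood at 122 in control, 272 in YA-A375 and 995 in OA-A375, 8.12-fold (6.75 to 9.84), and BCL2A1 had 5, 2 and 60 reads, 14.3-fold (5.797 to 45.6). PTGS2, the inducible cyclooxygenase, went from 32.98 to 163, TNFAIP2 from 1019 to 3232 and the leukocyte adhesion receptor gene ICAM1 from 978 to 2641, 2.7004-fold (2.51 to 2.91). SOD2, the mitochondrial superoxide dismutase, rose 1.82-fold (1.67 to 1.98), and KYNU of the kynurenine pathway 2.39-fold (2.21 to 2.58). The exception was IER3, an immediate early gene, at 4944 in control, 3568 in YA-A375 and 2960.0 in OA-A375, 0.599-fold (0.571 to 0.627). VCAM1, the other classical adhesion target, had 1, 1 and 2 reads.

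Complement and acute-phase genes split. Of 13 tested gene entries 7 were higher and 2 lower, with a median of 0.57. C3, the central complement component, stood at 856 in control, 3571 in YA-A375 and 5357 in OA-A375, 6.26-fold (5.83 to 6.73). For C3 the YA-A375 library was also far above control. The complement regulator CD55 rose 2.47-fold (2.34 to 2.61), the protease inhibitor SERPINA1 2.796-fold (2.25 to 3.499) and the complement protease C1R 1.49-fold (1.22 to 1.82). TF, which codes for the iron carrier transferrin, had 49, 73 and 3 reads, 0.0729-fold (0.0145 to 0.226). SERPINA3 has 2 gene identifiers in the file, of which one was not called and the other was lower.

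Matrix proteases and their inhibitors moved in both directions. Of 20 tested, 6 were higher and 3 lower, and the median was 0.04. MMP14, the membrane-anchored collagenase, stood at 3650.4 in control, 3259 in YA-A375 and 5181 in OA-A375, 1.42-fold (1.36 to 1.48), ADAMTS4 rose 2.704-fold (1.82 to 4.097) and ADAMTS1 1.68-fold (1.46 to 1.93). ADAMTS9 fell to 0.547-fold (0.441 to 0.676). MMP1, the interstitial collagenase, stood at 77.3 in control, 14.2 in YA-A375 and 20.2 in OA-A375, 0.261-fold (0.148 to 0.439), low after either secretome. The inhibitors TIMP1, TIMP2 and TIMP3 were not called, with folds of 1.08 (1.02 to 1.14), 1.14 (1.09 to 1.199) and 1.17 (1.15 to 1.18).

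Interferon-stimulated genes were more often higher than lower. Of 35 tested, 9 were higher and 3 lower, with a median of 0.24 that was 0.07 with no expression filter. TRIM22 and OASL had few reads, at 11, 25 and 54 and at 12, 14 and 38. Neither would have passed the filter with OA-A375 at the control level. Among better counted members IFIH1, a sensor of viral RNA, rose 1.88-fold (1.52 to 2.33) and OAS3, an oligoadenylate synthetase, 1.34-fold (1.26 to 1.42). GBP2 stood at 812 in control, 525 in YA-A375 and 328 in OA-A375, 0.404-fold (0.352 to 0.461), and ISG20 at 2111 in control, 1533 in YA-A375 and 1334 in OA-A375, 0.632-fold (0.588 to 0.678). None of 19 MHC class I presentation genes was called in either direction, among them HLA-B (0.854 (0.793 to 0.9197)), B2M (1.101 (1.07 to 1.13)) and CD274, which codes for PD-L1, at 1.53 (1.12 to 2.08). The interval of CD274 reaches above 2-fold, so its depth could not settle whether it rose.

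Stress genes that react to metals and electrophiles rose in part. The zinc-responsive genes MT2A and SLC30A1 stood at 1753 in control, 5472 in YA-A375 and 5059 in OA-A375 and at 304 in control, 466 in YA-A375 and 981 in OA-A375, with folds of 2.89 (2.73 to 3.05) and 3.22 (2.83 to 3.67), and MT1X had 11, 20 and 36 reads. With OA-A375 at the control level MT1X would not have passed the filter. Metallothioneins are near-identical copies, so reads may be split among them. Of 27 tested targets of NRF2, the main regulator of antioxidant genes, 10 were higher and 2 lower, with a median of 0.21. GCLM, a subunit of the enzyme that limits glutathione synthesis, rose 2.04-fold (1.84 to 2.27), HMOX1 2.07-fold (1.66 to 2.599) and the aldo-keto reductase AKR1C2 2.4000-fold (2.02 to 2.85). NQO1, often taken as the defining NRF2 target, stood at 8802 in control, 6321 in YA-A375 and 4785 in OA-A375, 0.544-fold (0.524 to 0.564), and PGD had 0.772-fold (0.743 to 0.802).

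Among the genes furthest below control were transcription factors, matrix and adhesion genes and transporters. Ranked by the upper bound of the interval, the first 12 were ITIH5, RXRG, ST8SIA5, MEGF10, SLC6A20, SPON2, SLC24A2, TFAP2B, ITGA9, FREM1, TMEM178B and IRS4. TFAP2B, a neural crest transcription factor, stood at 2994 in control, 1808 in YA-A375 and 148 in OA-A375, 0.0495-fold (0.0413 to 0.0589). SPON2, a secreted matrix protein, stood at 1542 in control, 471 in YA-A375 and 57.2 in OA-A375, 0.0371-fold (0.0275 to 0.0491), and ITGA9, an integrin α subunit for tenascin and VEGF-C, at 895 in control, 435 in YA-A375 and 38.2 in OA-A375, 0.0426-fold (0.0293 to 0.059998). YA-A375 lay between control and OA-A375 in each of these and was itself under control. RXRG, a retinoid X receptor, had 708, 487 and 16 reads and ITIH5, a hyaluronan-binding protein, 520, 115 and 7. ST8SIA5, a sialyltransferase, fell from 99 reads in control and 33 in YA-A375 to 0, which makes it at least 27.7-fold lower in OA-A375 against a floor of 3 counts. The transporter gene SLC6A20 fell from 95 and 22 reads to 0, at least 26.6-fold lower. MEGF10, an engulfment receptor, had 191, 201 and 2 reads, and in contrast to the others it was no lower in YA-A375 than in control. The insulin receptor substrate gene IRS4 had 90, 34 and 1 reads, the exchanger gene SLC24A2 357, 246 and 8, the basement membrane gene FREM1 230, 162 and 5 and TMEM178B 291, 159 and 8.

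**Figure D3:**
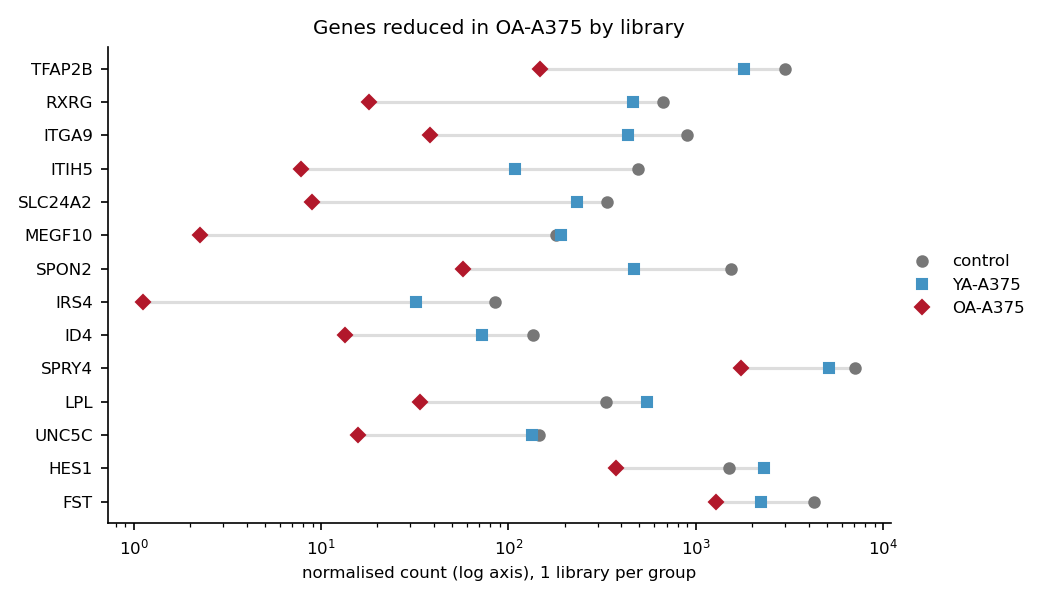
Normalised counts on a log axis of 14 genes called lower in OA-A375, with 1 point for each library: control in grey, YA-A375 in blue and OA-A375 in red. The OA-A375 point is the furthest left in each gene. For TFAP2B and ITGA9 the YA-A375 point lies between the other 2, and for MEGF10, LPL and HES1 it is not below control.

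Among genes of melanocyte and neural crest state, 13 of 34 were lower, 8 were higher and the median was -0.297. Besides TFAP2B and RXRG, the Schwann cell and neural crest cadherin gene CDH19 fell to 0.466-fold (0.422 to 0.513). NGFR, the nerve growth factor receptor that marks neural crest-like melanoma cells, stood at 2883 in control, 2622 in YA-A375 and 1447 in OA-A375, 0.502-fold (0.4698 to 0.536). ERBB3 stood at 10809 in control, 11947 in YA-A375 and 6954 in OA-A375, 0.643-fold (0.624 to 0.664), and SOX5 and SOX6 had folds of 0.658 (0.635 to 0.681) and 0.395 (0.282 to 0.545). Genes linked to the undifferentiated or invasive state were slightly higher, with AXL at 1.27-fold (1.23 to 1.301), EGFR at 1.32-fold (1.21 to 1.44), WNT5A at 1.41-fold (1.31 to 1.51) and ZEB1 at 1.37-fold (1.27 to 1.47), while SNAI2 fell to 0.283-fold (0.146 to 0.512). MITF, the melanocyte master regulator, was not called at 0.8595 (0.787 to 0.938), nor were SOX9 (1.002 (0.868 to 1.16)) and PAX3 (0.828 (0.717 to 0.956)). The largest increase in the list was that of MLPH, a melanosome transport gene, 2.26-fold (1.83 to 2.79).

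Cholesterol synthesis had the lowest median of the 41 lists and the largest share of members called lower. All 21 genes listed were tested, 16 were lower and 0 higher, and the median was -0.74. HMGCS1, the second enzyme of the pathway, stood at 3543 in control, 3709 in YA-A375 and 1171 in OA-A375, 0.3304-fold (0.308 to 0.354). SQLE, the squalene epoxidase, stood at 2489.5 in control, 2286 in YA-A375 and 1183 in OA-A375, 0.475-fold (0.442 to 0.511). In both of these YA-A375 lay near control and OA-A375 alone was low. Further along the pathway LSS had a fold of 0.523 (0.488 to 0.561), MSMO1 of 0.479 (0.431 to 0.532) and DHCR7 of 0.505 (0.474 to 0.538). The 5 members not called were PMVK (1.16 (1.05 to 1.29)), MVK (0.803 (0.713 to 0.903)), NSDHL (0.801 (0.718 to 0.893)), GGPS1 (0.8001 (0.733 to 0.873)) and TM7SF2 (0.743 (0.541 to 1.02)), and PMVK was the only one of the 21 with a fold above 1. CYP51A1 is counted with caution, since 83.2% of its exonic bases overlap another gene. None of the 16 members with a promoter in the table held the sterol element letters TCACNCCAC on either strand, and 1.14% of all tested promoters did.

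**Figure D4:**
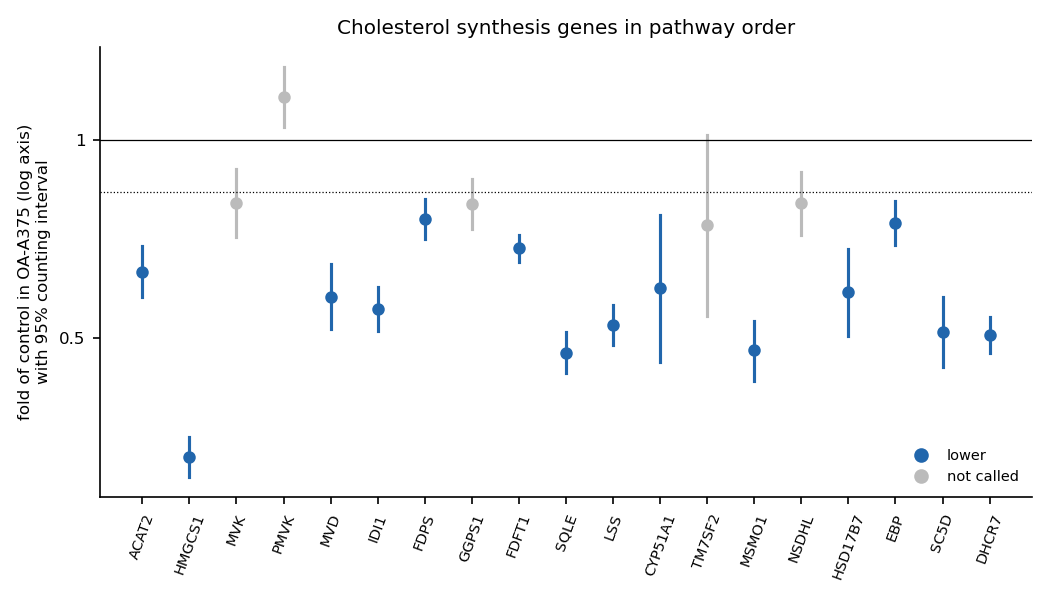
Fold of OA-A375 against control on a log axis for 19 of the 21 cholesterol synthesis genes in the order of the pathway, from ACAT2 to DHCR7, with bars for the 95% counting interval; the solid line is no change and the dotted line the call limit. HMGCS1 is the lowest at 0.3304, and the genes shown lie under 1 with PMVK as the exception.

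Regulators and uptake genes did not all follow. SREBF2, which codes for SREBP-2, stood at 5767 in control, 6456 in YA-A375 and 4372 in OA-A375, 0.758-fold (0.728 to 0.789), and its target INSIG1 at 3348 in control, 3780.5 in YA-A375 and 2294 in OA-A375, 0.685-fold (0.649 to 0.724). SREBF1 was not called at 1.03 (0.995 to 1.07). The lipoprotein receptor gene VLDLR rose 1.98-fold (1.59 to 2.48). Of the sterol regulation list 3 of 13 were higher and 3 lower. Of 9 tested targets of the oxysterol receptor LXR 1 was higher and 0 lower, beside 9.04% and 9.08% of all genes tested. The gene that rose was ABCA1, the cholesterol efflux pump, at 1.54-fold (1.33 to 1.77), while ABCG1 was not called at 0.9404 (0.622 to 1.41).

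Fatty acid synthesis and desaturation genes were lower in part, 8 of 20 with 1 higher and a median of -0.202. ACSS2, which makes acetyl-CoA from acetate, stood at 1960.0 in control, 2220.1 in YA-A375 and 682 in OA-A375, 0.348-fold (0.318 to 0.381). SCD, the stearoyl-CoA desaturase, stood at 32478 in control, 36118 in YA-A375 and 22710.3 in OA-A375, 0.699-fold (0.687 to 0.712), and FADS2 and ELOVL6 had folds of 0.672 (0.606 to 0.746) and 0.624 (0.582 to 0.668). The synthase itself, FASN, was not called at 0.888 (0.874 to 0.903), nor ACLY at 0.852 (0.829 to 0.875). Lipid droplet and PPAR-responsive genes went both ways, 5 of 27 higher and 4 lower, with a median of 0.06. ANGPTL4, an inhibitor of lipoprotein lipase, stood at 73.5 in control, 252 in YA-A375 and 205 in OA-A375, 2.79-fold (2.13 to 3.69), and the droplet protein gene CIDEC had 6, 31 and 36 reads. With OA-A375 at the control level CIDEC would not have passed the filter. PDK4 and CPT1A, which favour fatty acid use by mitochondria, had folds of 0.564 (0.503 to 0.631) and 0.762 (0.713 to 0.815). The droplet coat gene PLIN2 was not called at 0.944 (0.914 to 0.975). Of the lipid uptake genes of adipocytes, CD36 was near absent with 1, 2 and 0 reads, which gives no fold. LPL, the lipoprotein lipase, was low in OA-A375 alone. It stood at 333 in control, 551 in YA-A375 and 33.7 in OA-A375, 0.101-fold (0.0673 to 0.147).

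Sphingosine-1-phosphate genes were of interest to the study in cells exposed to old secretome. Sphingosine kinases make this lipid from ceramide-derived sphingosine, and it acts on the S1PR receptors. SPHK1 stood at 139 in control, 75.6 in YA-A375 and 221 in OA-A375, 1.596-fold (1.28 to 1.99), and SPHK2 was not called at 0.917 (0.808 to 1.04). Among receptors S1PR1 went from 40.5 to 132, 3.27-fold (2.29 to 4.75), and S1PR2 stood at 703 in control, 549 in YA-A375 and 404 in OA-A375, 0.575-fold (0.506 to 0.653). The lyase SGPL1 (0.912 (0.806 to 1.03)) and ceramidase ASAH1 (0.898 (0.801 to 1.01)) were not called. CERS4, a ceramide synthase, fell to 0.391-fold (0.2704 to 0.556). Over the list 3 of 34 were higher and 3 lower, with a median of 0.04. These shares are close to those of all genes tested, 9.04% and 9.08%.

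The RNA of STAT3, the transcription factor downstream of the IL-6 family, was itself lower. In the study STAT3 was blotted as phosphorylated and total protein after ceramide or secretome exposure. Read counts do not measure its activation. STAT3 stood at 3813 in control, 3643 in YA-A375 and 2887 in OA-A375, 0.757-fold (0.7203 to 0.796). Of 22 feedback genes and targets 8 were higher and 2 lower, with a median of 0.24. CEBPD stood at 167 in control, 371 in YA-A375 and 338 in OA-A375, 2.03-fold (1.68 to 2.45), and BCL6 rose 1.65-fold (1.45 to 1.88), whereas the feedback inhibitor SOCS3 was not called at 0.799 (0.707 to 0.902) and SOCS2 fell to 0.6198-fold (0.526 to 0.728). Of 25 listed genes, SOCS1 and BATF did not pass the filter and IRF1, JUNB, CEBPB and VEGFA are shared with other lists.

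Immediate early genes moved in both directions, also within the Fos and Jun families. Of 27 tested, 10 were lower and 8 higher, with a median of -0.15 that was above 0 with no expression filter. FOS stood at 4462 in control, 4169 in YA-A375 and 1869 in OA-A375, 0.419-fold (0.396 to 0.443), and FOSB at 3482 in control, 9501 in YA-A375 and 1012 in OA-A375, 0.291-fold (0.2701 to 0.313). ATF3, KLF4 and NR4A2 had folds of 0.547 (0.488 to 0.611), 0.356 (0.319 to 0.396) and 0.503 (0.4396 to 0.574). FOSB, ATF3 and KLF4 were higher in YA-A375 than in control, so for them the secretome libraries lay on either side of it. The long-lived Fos relatives rose. FOSL1 stood at 9468 in control, 8873 in YA-A375 and 18556 in OA-A375, 1.96-fold (1.91 to 2.01), and FOSL2 and JUNB rose 1.72-fold (1.59 to 1.85) and 1.46-fold (1.38 to 1.55), while JUN fell to 0.604-fold (0.554 to 0.659). The AP-1 letters TGANTCA were found in 6.56% of promoters of genes called higher, 5.02% of those called lower and 4.59% of all tested.

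ERK feedback genes, which follow the activity of the BRAF pathway, were lower more often than higher (10 and 6 of 25, median -0.11). SPRY4 stood at 7092 in control, 5133 in YA-A375 and 1733 in OA-A375, 0.244-fold (0.231 to 0.258), SPRY2 fell to 0.676-fold (0.649 to 0.704) and DUSP6 to 0.599-fold (0.574 to 0.625). DUSP4 rose 1.51-fold (1.47 to 1.54), PHLDA1 1.49-fold (1.45 to 1.52) and ETV4 and ETV5 were not called at 0.926 (0.886 to 0.969) and 1.05 (0.993 to 1.12). Sprouty genes and the phosphatase DUSP4 therefore differed in direction.

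Genes that respond to TGF-β and BMP were more often higher, 13 of 29 with 5 lower and a median of 0.35. The inhibitors of differentiation ID1 and ID3, which are BMP targets, stood at 702 in control, 1247 in YA-A375 and 2329 in OA-A375 and at 152 in control, 560.5 in YA-A375 and 937 in OA-A375, with folds of 3.32 (3.05 to 3.61) and 6.18 (5.21 to 7.36). ID4 went the other way, with 144, 76 and 12 reads and 0.0993-fold (0.0501 to 0.179). PMEPA1, a feedback inhibitor of TGF-β signals, stood at 865 in control, 1372 in YA-A375 and 4642 in OA-A375, 5.37-fold (4.99 to 5.77), and TGFBI rose 2.51-fold (2.401 to 2.62). Secreted inhibitors of the family were lower, FST at 4295 in control, 2235 in YA-A375 and 1284 in OA-A375, 0.299-fold (0.27998 to 0.319), and NOG at 97.999 in control, 40.6 in YA-A375 and 24.7 in OA-A375, 0.252-fold (0.151 to 0.402). Of the ligands BMP2 rose 2.6004-fold (2.22 to 3.05), TGFB1 1.32-fold (1.26 to 1.38) and TGFB2 fell to 0.377-fold (0.2303 to 0.598). SMAD7, a common feedback target, was not called at 0.962 (0.769 to 1.202).

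Growth factor axes changed member by member. In the IGF axis 5 of 15 were higher and 6 lower, and the median of -0.24 and the mean differed in sign. IGFBP5, a binding protein, stood at 702 in control, 182 in YA-A375 and 2137 in OA-A375, 3.04-fold (2.796 to 3.32), with the secretome libraries on either side of control, and PAPPA, the protease that frees IGF from such proteins, went from 46.2 to 164, 3.55-fold (2.55 to 5.01). The adaptors moved apart, IRS1 at 1.905-fold (1.78 to 2.04) and IRS2 at 0.535-fold (0.509 to 0.561), and the receptors IGF1R and INSR fell to 0.77998-fold (0.746 to 0.815) and 0.592-fold (0.518 to 0.676). In the FGF list 3 of 10 were higher and 3 lower. FGFR1 stood at 1006 in control, 666 in YA-A375 and 1732 in OA-A375, 1.72-fold (1.59 to 1.86), the decoy-like receptor FGFRL1 rose 2.21-fold (2.12 to 2.31), and FGFBP1, which releases FGF from matrix, fell to 0.227-fold (0.172 to 0.296). FGF5 had 20, 1 and 60 reads and would not have passed the filter with OA-A375 at the control level.

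Notch and WNT genes included a ligand and a target that went apart. JAG1, a Notch ligand and an NF-kB-responsive gene, stood at 398 in control, 583 in YA-A375 and 1298 in OA-A375, 3.26-fold (2.92 to 3.66), and the receptor NOTCH2 rose 1.92-fold (1.86 to 1.97). HES1, the classical Notch target, stood at 1501 in control, 2312 in YA-A375 and 374 in OA-A375, 0.249-fold (0.221 to 0.2804), and HEY2 had 56, 66 and 19 reads. Over the list 9 of 35 were higher and 4 lower, with a median of 0.17. Guidance genes were called often in both directions, 12 higher and 13 lower of 45. NRP2, the coreceptor for class 3 semaphorins and VEGF-C, stood at 2506 in control, 1882 in YA-A375 and 5712 in OA-A375, 2.28-fold (2.17 to 2.39), the netrin receptor DCC went from 40.5 to 269, 6.65-fold (4.79 to 9.43), and SEMA5A had 12, 12 and 81 reads. UNC5C, the other kind of netrin receptor, had 155, 141 and 14 reads, 0.108-fold (0.0575 to 0.186). SEMA5A would not have passed the filter with OA-A375 at the control level. PLXNB1, EPHB3 and SEMA3D fell to 0.448-fold (0.398 to 0.503), 0.413-fold (0.335 to 0.507) and 0.403-fold (0.3397 to 0.476).

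Of 25 YAP and TEAD targets 6 were higher and 6 lower. The defining targets CTGF, CYR61 and ANKRD1 had folds of 0.781 (0.736 to 0.829), 0.898 (0.865 to 0.931) and 0.9596 (0.804 to 1.14), of which only CTGF was called. Core clock genes were more often higher, 10 of 18 with 1 lower and a median of 0.52. NR1D1, which codes for the repressor REV-ERBα, stood at 317 in control, 446 in YA-A375 and 867 in OA-A375, 2.74-fold (2.405 to 3.12), DBP at 101 in control, 84.1 in YA-A375 and 254 in OA-A375, 2.52-fold (1.99 to 3.197), and BHLHE40 rose 1.92-fold (1.74 to 2.12). CRY1 stood at 629 in control, 361 in YA-A375 and 441 in OA-A375, 0.702-fold (0.618 to 0.796). Each library was taken at a single time, so phase and level cannot be told apart. Glucocorticoid-responsive genes gave 6 higher and 6 lower of 19. The defining members FKBP5, TSC22D3 and PER1 were not called, at 1.15 (1.03 to 1.28), 0.822 (0.559 to 1.1998) and 1.25 (1.11 to 1.401), KLF9 and SGK1 fell to 0.578-fold (0.545 to 0.613) and 0.503-fold (0.467 to 0.541), and some that rose (BIRC3, NFKBIA and MT2A) are shared with lists above.

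Integrins and laminins were called in most cases. Of 29 tested, 13 were higher and 6 lower, and the median of 0.15 and the mean differed in sign. ITGA5, the fibronectin receptor subunit, stood at 3285 in control, 4672 in YA-A375 and 6945 in OA-A375, 2.11-fold (2.03 to 2.204). LAMA5 stood at 5022 in control, 7029 in YA-A375 and 12661 in OA-A375, 2.52-fold (2.44 to 2.605), LAMC1 rose 1.46-fold (1.44 to 1.49) and ITGA1 and ITGA2, the collagen receptor subunits, 1.95-fold (1.87 to 2.04) and 1.55-fold (1.46 to 1.64). The common β subunit ITGB1 was not called at 1.11 (1.09 to 1.14). Besides ITGA9, ITGA11 had 62, 23 and 6 reads and ITGA10 stood at 825 in control, 3028 in YA-A375 and 350.2 in OA-A375, 0.424-fold (0.372 to 0.483), and ITGB5 fell to 0.656-fold (0.631 to 0.682).

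Of 33 collagen and matrix genes 7 were higher and 8 lower, with a median of -0.03. COL6A3 stood at 137 in control, 285 in YA-A375 and 995 in OA-A375, 7.28-fold (6.1003 to 8.74), and SPARC, a matrix glycoprotein, at 29260.1 in control, 28128 in YA-A375 and 47578 in OA-A375, 1.63-fold (1.602 to 1.65). VCAN rose 2.84-fold (2.28 to 3.56) and LOXL2, a collagen cross-linking enzyme, 1.76-fold (1.69 to 1.83). Its relative LOXL4 went the other way, at 19499 in control, 12125 in YA-A375 and 6246 in OA-A375, 0.3203-fold (0.311 to 0.3299), and HAPLN1, which links hyaluronan to proteoglycans, stood at 5699.9 in control, 10310.3 in YA-A375 and 1579 in OA-A375, 0.277-fold (0.261 to 0.294). FN1, which codes for fibronectin, fell to 0.543-fold (0.512 to 0.576), and its receptor subunit ITGA5 had risen. COL6A3 is also on the fibroblast marker list, of which COL3A1 and COL1A2 were near 0 and PDGFRA passed the filter, as given above.

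**Figure D5:**
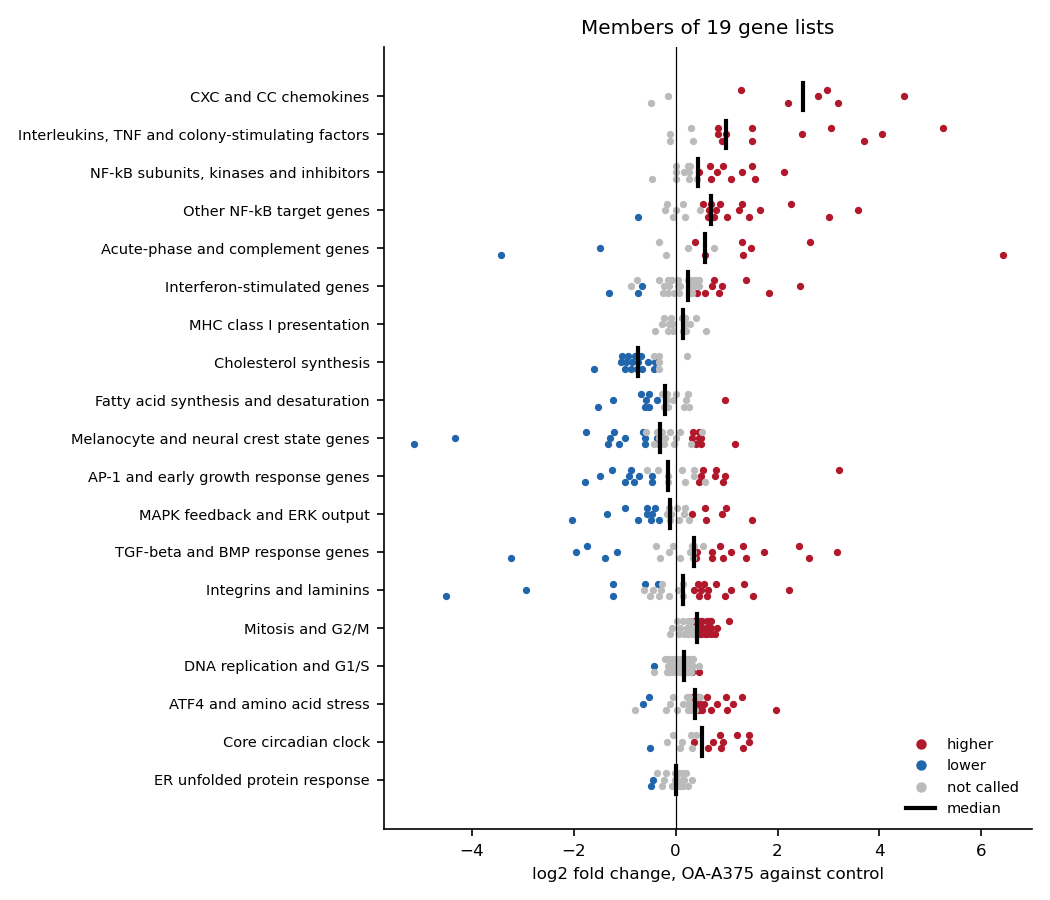
Log2 fold change in OA-A375 against control of the tested members of 19 gene lists, 1 point for each gene, red for called higher, blue for called lower and grey for not called, with a black bar at the median. Weakly counted genes are left out. Chemokines have the highest median, 2.497, cholesterol synthesis the lowest, -0.74, and lists such as integrins and laminins or AP-1 genes hold called members on both sides of 0.

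Cell cycle genes were taken as separate lists for mitosis and for DNA replication. Of 42 genes of mitosis and G2/M 27 were higher and 0 lower, with a median of 0.42. The largest increase was that of CDC20. CDC20, the activator of the anaphase-promoting complex, stood at 3193 in control, 4481 in YA-A375 and 6611 in OA-A375, 2.07-fold (1.98 to 2.16), PLK1 rose 1.63-fold (1.56 to 1.698), CCNB1 1.62-fold (1.55 to 1.69) and MKI67 1.35-fold (1.32 to 1.39), from 10090.1 in control, 14318 in YA-A375 and 13628 in OA-A375. For MKI67 the YA-A375 value was the highest of the libraries, and for the other 3 it lay between control and OA-A375. CDK1 was not called at 0.925 (0.865 to 0.988), nor TOP2A at 1.02 (0.9903 to 1.05). Of 44 genes of DNA replication and G1/S 2 were higher and 1 lower, with a median of 0.16. CDK6 fell to 0.744-fold (0.722 to 0.766), CCND3 rose 1.37-fold (1.25 to 1.49), and MCM2 and PCNA were not called at 1.07 (1.03 to 1.11) and 0.963 (0.925 to 1.002). The spread of cells over the cycle was not measured.

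Among p53 targets 8 of 26 were higher and 3 lower, with CDKN1A, the kinase inhibitor p21, at 3384 in control, 3589.6 in YA-A375 and 5298 in OA-A375, 1.57-fold (1.499 to 1.64), GDF15 at 75.4 in control, 361 in YA-A375 and 218 in OA-A375, 2.89-fold (2.22 to 3.797), and MDM2 not called at 0.885 (0.835 to 0.937). Of the BCL2 family and caspases 4 of 27 were higher and 2 lower. The study measured BCL-2 as protein and reported a rise after young but not old secretome, whereas RNA is given here. BCL2 was not called at 290.2 in control, 272 in YA-A375 and 292 in OA-A375, 1.01-fold (0.849 to 1.19). BMF and BCL2L11, which code for proapoptotic BH3-only proteins, fell to 0.233-fold (0.155 to 0.339) and 0.557-fold (0.451 to 0.685), while PMAIP1, another of that kind, rose 1.45-fold (1.32 to 1.601).

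Genes of the amino acid response through ATF4 were higher in 17 of 34 and lower in 2, with a median of 0.39. ASNS, asparagine synthetase, stood at 949.8 in control, 3668 in YA-A375 and 2342 in OA-A375, 2.47-fold (2.29 to 2.66). SLC7A5 and SLC3A2, which form the large neutral amino acid transporter, stood at 11989 in control, 22518 in YA-A375 and 26020.5 in OA-A375 and at 3078 in control, 5759.5 in YA-A375 and 6237 in OA-A375, with folds of 2.17 (2.12 to 2.22) and 2.03 (1.94 to 2.12). For ASNS YA-A375 was the highest library, and for the transporter genes both secretome libraries stood well above control. SLC38A2 fell to 0.7004-fold (0.679 to 0.723), and ATF4 and TRIB3 were not called at 1.23 (1.19 to 1.27) and 0.965 (0.886 to 1.05). The unfolded protein response of the endoplasmic reticulum was not part of it, with 0 of 23 higher, 2 lower, a median of 0.01 that turned negative under each other scaling, and HSPA5, its main chaperone, at 1.11 (1.09 to 1.13).

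Heat shock protein genes were higher in 8 of 20 and lower in 0, with a median of 0.29. HSP90AA1 stood at 34860.2 in control, 30475 in YA-A375 and 55264 in OA-A375, 1.59-fold (1.56 to 1.61), and HSPB1 rose 1.62-fold (1.55 to 1.698), while the stress-inducible HSPA1A was not called at 1.16 (1.05 to 1.27). Of 25 glycolysis genes 4 were higher and 0 lower, with LDHA at 1.23-fold (1.21 to 1.26), PFKP at 1.36-fold (1.31 to 1.41) and GAPDH not called at 1.08 (1.07 to 1.09). Of 23 hypoxia-response genes 8 were higher and 0 lower, led by NDUFA4L2 with 26, 132 and 71 reads, whereas the median was 0.02. Of 13 mitochondrially encoded mRNAs 3 were higher, at most 1.45-fold (1.39 to 1.51) for MT-ND6, and 0 lower. MT-ND6 lies on the strand opposite to its neighbours, so its counts depend on the use of strand, which was not stated.

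In absolute terms the largest shifts concerned abundant genes. The 8 largest gains in normalised count were those of HSP90AA1, DCBLD2, SPARC, SLC7A5, ACTB, LAMC1, MT-ND4 and FOSL1, which together went from 235083 in control to 346337 in OA-A375. DCBLD2, a membrane receptor of the neuropilin-like kind, went from 15194 to 34526, 2.27-fold (2.23 to 2.32), and ACTB and MT-ND4 were not called at 1.17 (1.16 to 1.19) and 1.19 (1.18 to 1.21). The 8 largest losses were those of EEF1A1, SERPINE2, AKAP12, GNAS, EEF2, SLC26A2, CD74 and PABPC1, together from 631616 to 427716. Of these EEF1A1, EEF2 and PABPC1 serve translation, with folds of 0.759 (0.753 to 0.764), 0.741 (0.733 to 0.748) and 0.785 (0.776 to 0.794). AKAP12, a scaffold for protein kinase A, stood at 37917 in control, 40671 in YA-A375 and 9169.6 in OA-A375, 0.242-fold (0.236 to 0.248). GNAS, which codes for the stimulatory G protein α subunit, stood at 49974 in control, 44441 in YA-A375 and 25072 in OA-A375, 0.502-fold (0.494 to 0.5096), and the sulfate transporter SLC26A2 at 29451 in control, 42881 in YA-A375 and 11078 in OA-A375, 0.376-fold (0.368 to 0.385). SERPINE2, a protease inhibitor, stood at 129405 in control, 94768 in YA-A375 and 96670.3 in OA-A375, 0.747-fold (0.741 to 0.753), and CD74, the invariant chain of MHC class II, fell to 0.586-fold (0.576 to 0.596).

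Among noncoding genes the share called was smaller in some classes. Of 457 lincRNAs tested 46 (10.1%) were higher and 43 (9.41%) lower, close to the shares of protein-coding genes, 1173 and 1189 of 12435. Of 414 antisense genes 27 (6.52%) were higher and 22 (5.31%) lower, and of 562 processed pseudogenes, whose reads may belong to a parent gene, 29 (5.16%) and 9 (1.601%), smaller shares than the 9.43% and 9.56% of protein-coding genes. NKILA, an NF-kB-interacting RNA next to PMEPA1 (chromosome 20, 57710183 to 57712780), stood at 15.1 in control, 32.1 in YA-A375 and 177 in OA-A375, 11.8-fold (7.02 to 21.1), and 13.2% of its exonic bases overlap PMEPA1, which also rose. LINC00973 stood at 104 in control, 75.6 in YA-A375 and 392 in OA-A375, 3.78-fold (3.04 to 4.73), LINC01468 at 70.7 in control, 54.8 in YA-A375 and 267 in OA-A375, 3.78-fold (2.905 to 4.97), and AC005355.2 had 5, 78 and 38 reads, most in YA-A375. Those furthest lower were MCF2L-AS1 with 38, 34 and 2 reads, RP1-140K8.5 with 100, 83 and 13, LINC00664 with 47, 78 and 4 and RP11-569G13.2 with 25, 41 and 1. Since the use of strand in counting was not stated, an antisense gene cannot be told from its partner.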

How the data were processed

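RNA of 3 A375 cultures was sequenced as poly(A) libraries, 1 library for each of control, YA and OA, and groups were taken from the sample labels. The authors deposited raw read counts per gene as whole numbers, with an Ensembl identifier, a symbol and a biotype for 58037 genes. Per the submitters' processing notes STAR 2.5.1b, R 3.6.1 and featureCounts were used with the hg38 build. The annotation release and the use of strand are not given in the sources used here, so counts of overlapping, antisense and duplicated genes are uncertain. The study's methods name DESeq2 with a cutoff of 1.2 for these data.

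Counts were divided by DESeq2 1.42.0 median-of-ratios size factors, 1.06 for control, 1.06 for YA and 0.891 for OA, in R 4.3.3. Genes with a mean normalised count under 20 were left out, and the genes kept held 99.7% of the counts of both libraries. Log2 fold changes took a pseudocount of 1. Folds and their 95% Clopper-Pearson intervals were computed from the reads of the pair of libraries with Python 3.11.15, scipy 1.17.1, numpy 2.4.6, pandas 2.3.3 and matplotlib 3.10.9. They cover counting error only, because 1 library per group gives no spread between cultures. PCR copies of one molecule cannot be recognised here, so the intervals may be too narrow even for counting error. With 1 library per group edgeR's quasi-likelihood test could not be run. A library at 0 was replaced by a floor of 3 counts to give a bound, and ratios on 1 to 3 counts are given with their interval, in place of the bound first planned for them.

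Named genes were the 12 with the highest lower and the 12 with the lowest upper bound, the 8 largest gains and losses in normalised count, 4 lincRNA or antisense genes in each direction, members of 41 functional and 6 marker lists, and SPHK1, IL6, STAT3, CD36, CPT1A and BCL2. Members, lists and tests were chosen with earlier results of these data known, so they are not independent support. The neighbours of CXCL8 were named by position. Positions and exonic lengths are from GENCODE 29, which matched 57433 identifiers, and promoters of 300 bases (250 before the start) from RefSeq, GRCh38.p14, which matched 10038 tested genes by symbol. The letters searched were GGNNTTTCC for NF-kB, TGANTCA for AP-1 and TCACNCCAC for the sterol element, on both strands, and overlap between matches of different motifs was not counted. The procedure was tested on simulated counts. Alternatives were scaling by total count or by TMM (edgeR 4.0.16), size factors from the compared pair only, a pseudocount of 5, no filter, a minimum mean of 100, other thresholds, protein-coding genes only and the mean of a list, and, added after the data had been seen, genes with no exonic overlap. Values of some single genes are not reported here.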

Additional observations from a re-analysis of the deposited data

Results flagged for a closer look

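Some genes were too weakly counted to enter the comparison and yet had reads in OA-A375 with none in control, 9 genes with at least 10 reads. CSF3, which codes for the granulocyte growth factor G-CSF, had 0 reads in control, 3 in YA-A375 and 47 in OA-A375, at least 18.7-fold higher than control against a floor of 3 counts per library. CYSLTR1, a receptor for cysteinyl leukotrienes, had 0, 0 and 28 reads, at least 11.1-fold higher. GABRA6, a GABA receptor subunit, had 0, 2 and 18 reads and SLC30A10, a manganese exporter, 0, 4 and 17. MEFV, which codes for pyrin, had 0, 4 and 14 reads and CHRNA9, a nicotinic receptor subunit, 0, 0 and 14. The loci RP5-1052M9.1, CTC-435M10.12 and AC105342.1 had 0, 1 and 12, 0, 11 and 12 and 0, 3 and 11 reads. Each value comes from 1 library, and its cause was not tested.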

How the results depend on the processing

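The numbers of genes called, 1303 higher and 1308 lower, moved by less than 1.5 times with scaling by total count or TMM, size factors from the compared pair, a pseudocount of 5, no expression filter, a minimum mean of 100 and protein-coding genes only, with ranges of 1026 to 1522 higher and 966 to 1578 lower. They moved with the threshold by construction: 3048 and 3092 at 1.2-fold whatever the interval, 412 and 535 at 2-fold, and 180 and 243 with the interval wholly beyond 2-fold. Among the 7589 genes with no exonic overlap, chosen after seeing the data, 771 and 719 were called, since fewer genes were tested. Single genes were checked for 54 of the named genes: the leaders by interval, by gain or loss and among noncoding genes, and the study's own genes. No called value among them changed its sign under any scaling or pseudocount. The scalings shifted the median of all genes tested by -0.007 to -0.019 and calls lie beyond 1.2-fold, so no sign could have turned. Whether each call was kept was not checked gene by gene. List medians kept their sign under the scalings and the pseudocount except for cytokine receptors (0.01 to -0.00 under TMM and -0.01 with the pair) and the unfolded protein response (0.01 to -0.01 with both and -7.1e-05 with total count). The mean in place of the median turned the sign for the IGF axis (-0.24 to 0.15), integrins and laminins (0.15 to -0.06), YAP targets (-0.06 to 0.01) and the unfolded protein response (to -0.02). No filter turned AP-1 genes to 0.12, FGF genes to -0.05, cytokine receptors to -0.07 and LXR targets to -0.02, and a minimum mean of 100 turned FGF genes to -0.05, matrix proteases to -0.01, sphingosine-1-phosphate genes to -0.02 and cytokine receptors to -0.07. Some medians moved by over 1.5 times with their sign kept. No filter gave 1.44 for chemokines (from 2.497), 0.38 for acute-phase genes (from 0.57), 0.07 for interferon-stimulated genes (from 0.24) and -0.12 for the IGF axis. A minimum mean of 100 gave 0.94 for acute-phase and 0.06 for interferon-stimulated genes. The mean gave 1.70 for interleukins (from 0.99), -0.51 for melanocyte state genes (from -0.297), 0.32 for NRF2 targets (from 0.21), 0.34 for glucocorticoid-responsive genes (from 0.17), 0.25 for matrix proteases (from 0.04) and 0.29 for hypoxia genes (from 0.02). Other medians near 0 also moved by over 1.5 times, each by less than 0.2. The cause of these was not tested. No paired analysis was possible because each group had 1 library, and no library could be left out. Depth limits weakly counted genes, whose intervals are wide.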

Other observations

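Beyond the lists, transcription factors of glial and neural crest cells were at 0 in OA-A375 among genes below the filter. OLIG1, a glial lineage factor, had 33 reads in control, 14 in YA-A375 and 0 in OA-A375, at least 9.23-fold lower in OA-A375 against a floor of 3 counts, and SOX8, a close relative of SOX10, had 30, 29 and 0, at least 8.39-fold lower. FAM135B had 24, 8 and 0 reads and the lincRNA RP11-5P4.1 23, 17 and 0. These genes were chosen after their values had been seen, as all 4 below the filter with at least 20 reads in control and 0 in OA-A375.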
